A study of Mus musculus with 6 samples.

Results

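The genes described here encode metalloproteinases and the proteins that restrain them: the matrix metalloproteinases (MMP), the membrane-anchored ADAM proteins, the secreted ADAMTS enzymes, their non-catalytic relatives ADAMTSL, and the tissue inhibitors of metalloproteinases (TIMP). Members were taken by gene symbol and a protein-coding annotation, which gave 83 of the 55304 genes in the table: 22 MMP, 33 ADAM, 19 ADAMTS, 5 ADAMTSL and 4 TIMP genes. Mmp1a also matched by symbol but was annotated as a polymorphic pseudogene and was left out. RNA was sequenced from microglia, the resident macrophages of the brain, which were obtained from C57BL/6 mice aged 4 to 5 weeks by digestion of the brain, removal of myelin on a 30% Percoll gradient and sorting on CD45 and CD11b. The 3 libraries labelled KO came from QKIflfl; Cx3cr1cre-ert2 mice, in which loxP sites flank part of Qk and a tamoxifen-dependent Cre is driven from the Cx3cr1 locus. The 3 libraries labelled WT came from QKIfl/fl mice, which carry the same floxed alleles without the Cre. Presence of the Cre allele thus goes together with the intended deletion of QKI, an RNA-binding protein, and the labels mention no tamoxifen. Separate animals are not stated for the libraries, so p-values measure the spread between these libraries only.

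Metalloproteinases of these families cut proteins outside the cell or at its surface with the help of a zinc ion. MMPs are made as inactive precursors and act on collagens, other matrix proteins and other proteases; ADAM10 and ADAM17 release the outer part of membrane proteins, such as Notch receptors and tumour necrosis factor; ADAMTS enzymes cut proteoglycans and procollagens. TIMPs block the active site. In the brain these enzymes are known for remodelling matrix around vessels and synapses and for shedding receptors from microglia.

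The whole reads recovered from the deposited values numbered 56988261 in WT C, the lowest, to 77199936 in WT B, the highest; the deposited values themselves are scaled to 1 total. A count of 0 allows up to 3 reads, which is 1.34 to 1.81 on the deposited scale (normalised reads); this limit covers counting error only. The targeted gene went against its label, since Qk had 24768 ± 1073 normalised reads in the libraries labelled KO and 11632 ± 800 in those labelled WT (SD, n = 3 each); a value per transcript does not show whether an exon was removed. Directions are therefore given by label, KO relative to WT. Cx3cr1, the locus that carries the Cre, had 58308 ± 4848 in KO and 246161 ± 11084 in WT (SD, n = 3 each). None of the 10 microglial markers, which include Cx3cr1 itself, was at 0 in any library. Of these markers 9 were lower in the libraries labelled KO, where 23.4% of all genes tested (below) were. With trimmed-mean (TMM) scaling factors 8 were lower, beside 15.4% of all genes. The sum of all 10, Cx3cr1 included, was 772447.2 to 881975.2 in the libraries labelled KO and 1596349.7 to 1655331.4 in those labelled WT. Of 7 markers of border-associated macrophages, the macrophages of the meninges and vessel walls, 4 were higher, where 11.3% of all genes tested were. With TMM factors 4 were higher, beside 15.4% of all genes, and without WT C 3 were, beside 10.3%. Their sums were 2001.3 to 3411.1 in KO and 1062.0 to 1561.0 in WT. The sums for neutrophils, monocytes, vessels, astrocytes, oligodendrocytes and neurons were lower in KO and highest in WT C.

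Of the 83 members, 52 had a mean above 1 normalised read over the 6 libraries and were tested; 20 were at 0 in every library and 11 lay lower than that mean without being 0 throughout. At an adjusted p under 0.05 (limma on log2(value + 1), adjusted over all 22472 genes tested), 6 members rose and 20 fell in the libraries labelled KO. Over all tested genes 11.3% were called higher and 23.4% lower, 34.6% in all, against 11.5% higher and 38.5% lower among the 52 members. The median log2 fold change was -0.67 for the tested members and -0.15 for all tested genes. The part of the marker shifts given above, down for microglia and up for border-associated macrophages, in the falls and rises of the members was not tested. The limma fit above used the deposited values, scaled to 1 column total. When trimmed-mean (TMM) factors were added, the median of all genes moved to -0.02 and that of the members to -0.54. With these factors 6 members were higher and 18 lower, beside 15.4% and 15.4% of all genes. Among all called genes the share that were higher was 49.9% with these factors and 32.5% without. The groups did not overlap for 6 members that were higher in all 3 libraries labelled KO and 21 that were lower in all 3, where 15.7% and 32.2% of all tested genes (47.9% together) behaved so. With the library letter as a block, 6 members were higher and 25 lower, 31 of 52, where 41.7% of all tested genes were called. All 6 calls of higher members stood in each fit with 1 library left out.

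**Figure D1:**
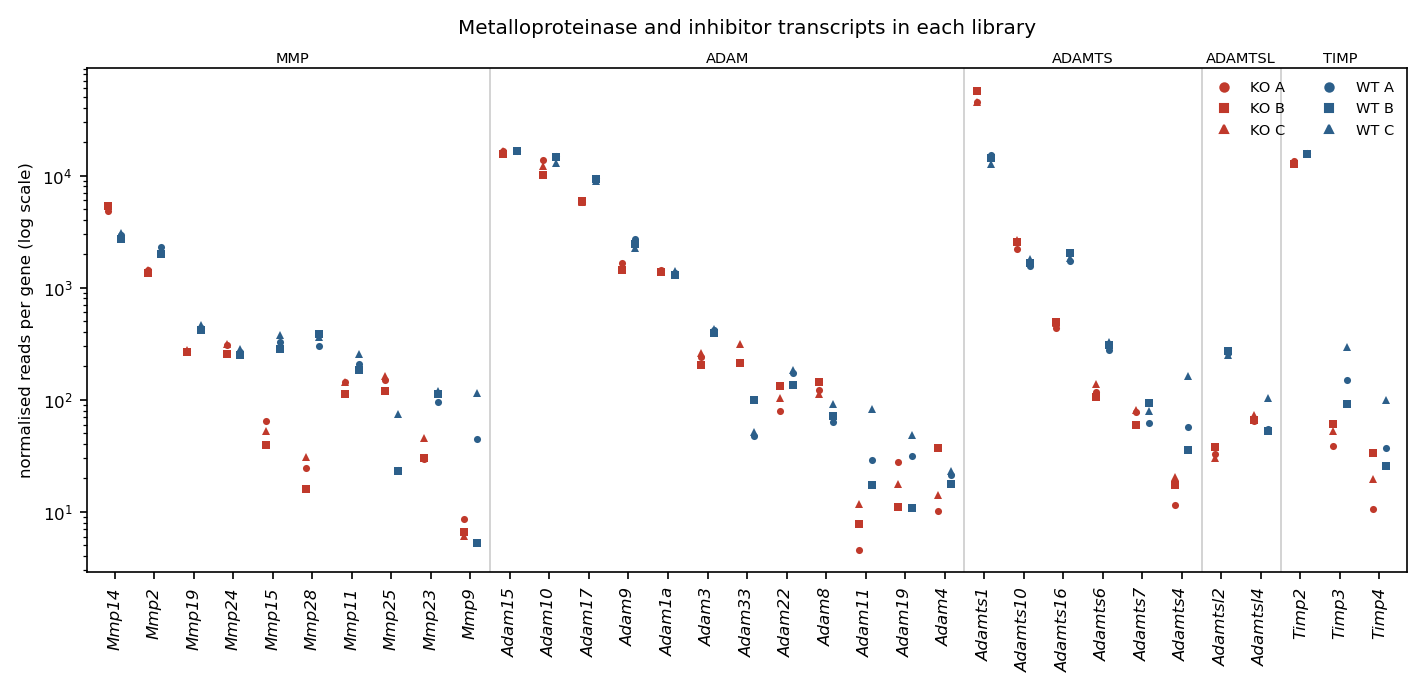
Normalised reads per gene (log axis) of the 33 members with a mean above 20, by family and from the highest mean to the lowest within a family; red points are the libraries labelled KO, blue points those labelled WT, and the shape gives the library letter. Adamts1 lies at 45058.6 to 57013.7 in the libraries labelled KO and at 12642.3 to 15372.5 in those labelled WT, while Mmp28, Mmp15 and Adamtsl2 lie far lower in the libraries labelled KO than in the libraries labelled WT.

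**Figure D2:**
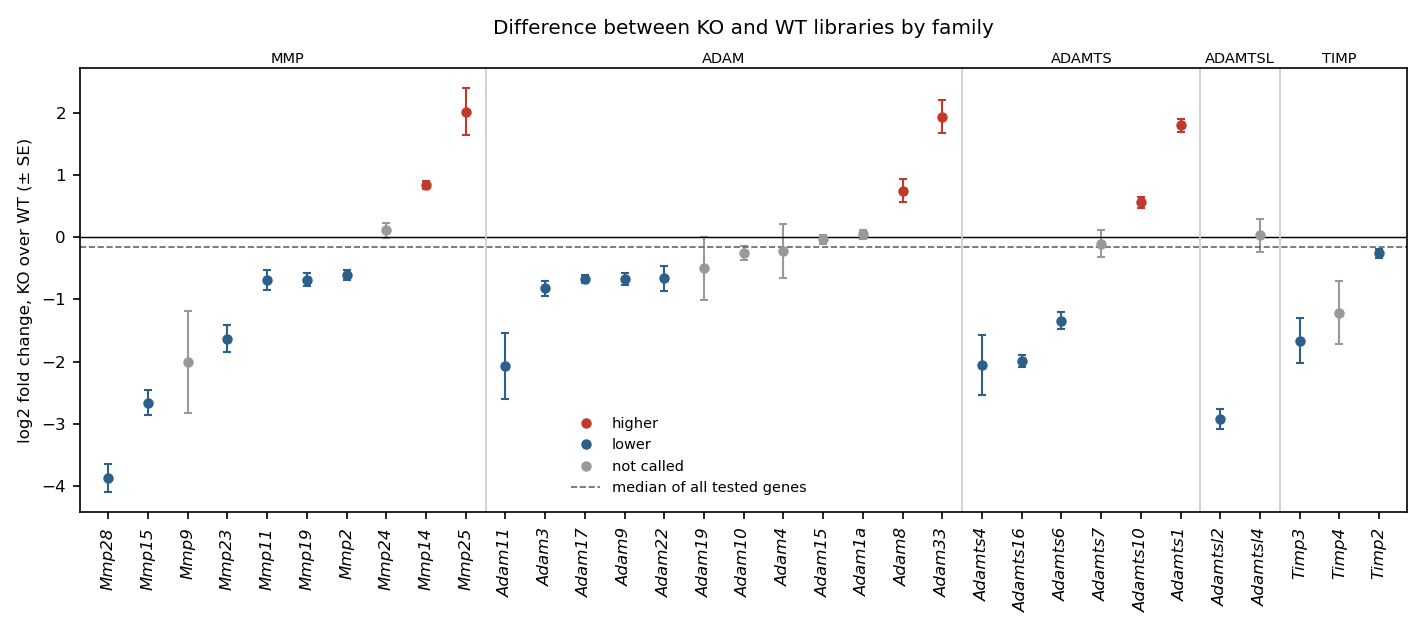
Log2 fold change of the libraries labelled KO over those labelled WT for the same 33 members (points, with SE bars from limma), coloured by whether the gene passed the adjusted threshold; the dashed line is the median of all tested genes (-0.15). The MMP genes spread from -3.87 for Mmp28 to 2.02 for Mmp25.

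Among the MMPs anchored to the membrane, the libraries labelled KO had more of Mmp14 and Mmp25 and less of Mmp15. Mmp14 encodes MT1-MMP, a collagenase that also activates the MMP2 precursor, and had the highest level per kilobase of the MMP genes in both groups. It had 4871.4, 5299.4 and 5331.0 normalised reads in KO A, KO B and KO C, against 2935.1, 2703.4 and 3040.6 in WT A, WT B and WT C. The groups were far apart, a 1.79-fold rise (log2 fold change 0.84, SE 0.07, adjusted p = 1.26e-05). Mmp14 spans chr14:54431612-54441265 (plus strand, GRCm38). Mmp25, a membrane-type MMP first known from leukocytes and held by a lipid anchor, had 150.2, 120.3 and 162.6 in the libraries labelled KO, against 23.8, 23.1 and 74.2 in those labelled WT. WT C stood above the other WT libraries, and the log2 fold change of 2.02 (SE 0.38, adjusted p = 0.00232) was 2.56 without it. Mmp15, which encodes MT2-MMP, had 64.1, 39.4 and 52.5 in the libraries labelled KO, against 329.2, 281.3 and 376.8 in those labelled WT. This was a 6.33-fold fall (log2 fold change -2.66, SE 0.20, adjusted p = 3.61e-06) with wide separation between the groups. Mmp24, the gene of MT5-MMP, had 290.6 ± 31.0 in KO and 268.0 ± 16.9 in WT (SD, n = 3 each) with overlapping groups and did not pass (log2 fold change 0.11, SE 0.12, adjusted p = 0.507). Mmp17, another lipid-anchored form, was low, with a mean of 9.3, and did not pass either. Mmp23, whose product is held in the membrane by its amino end, had 29.8, 29.9 and 45.5 in the libraries labelled KO, against 95.2, 112.6 and 119.4 in those labelled WT. It fell by 1.63 on the log2 scale (SE 0.22, adjusted p = 0.000295).

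Mmp28 had the largest fall of all members that were above 0 in both groups. It encodes epilysin, a secreted MMP known from skin, lung and macrophages. The libraries labelled KO held 24.7, 16.1 and 30.5 normalised reads, against 301.9, 388.1 and 363.6 in those labelled WT. All libraries labelled KO lay over 9 times lower than any labelled WT, and the means differed 14.8-fold (log2 fold change -3.87, SE 0.23, adjusted p = 9.04e-07). The deposited Mmp28 transcript spans chr11:83440768-83463022 (minus strand, GRCm38), and 466 of its 3438 exonic bases overlap 1700020L24Rik on the other strand; strand use in counting is not stated. The other secreted MMPs that were well expressed fell less. Mmp2, gelatinase A, had 1449.3, 1351.0 and 1441.9 in the libraries labelled KO, against 2302.0, 1999.3 and 2180.2 in those labelled WT, and fell by 0.61 on the log2 scale (SE 0.08, adjusted p = 0.000177). Mmp19 was almost constant within groups, at 271.2, 268.9 and 277.0 in KO A, KO B and KO C, against 432.0, 419.7 and 460.6 in WT A, WT B and WT C. It fell by 0.68 (SE 0.10, adjusted p = 0.000381), and 950 of its 3402 exonic bases overlap genes on the other strand. Mmp11, stromelysin 3, which furin activates inside the cell, had 143.8, 113.1 and 144.4 in the libraries labelled KO, against 208.7, 184.3 and 256.8 in those labelled WT, a fall of 0.69 (SE 0.16, adjusted p = 0.00848).

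Mmp8 and Mmp9, which neutrophils store in their granules, were low in the libraries labelled KO and in WT B and highest in WT C. Mmp8, the neutrophil collagenase, was at 0 in KO A, KO B and KO C, against 14.2, 0.9 and 66.9 normalised reads in WT A, WT B and WT C. Set against the mean of the floors of the libraries labelled KO, 1.48, it was at least 18.5-fold lower by group means, and at least 5.1-fold lower without WT C (log2 fold change -3.64 with all libraries and -2.42 without WT C). These bounds allow for the 0 values in KO and not for the spread in WT. WT B, at 0.9, lay under its own floor of 1.34 and cannot be told apart from the libraries at 0. Mmp8 is nevertheless in the count of 21 members lower in all 3 libraries labelled KO. The adjusted p of 0.0184 was lost without WT A, WT C, KO B or KO C (adjusted p = 0.0513 to 0.0526). Mmp9, gelatinase B, had 8.7, 6.6 and 6.1 in the libraries labelled KO, against 44.6, 5.3 and 115.2 in those labelled WT, so that WT B lay below every library labelled KO. It did not pass (log2 fold change -2.00, SE 0.82, adjusted p = 0.0851) but passed with edgeR on the recovered reads (adjusted p = 0.0341), with DESeq2 (adjusted p = 0.0303), with the library letter as a block (adjusted p = 0.0336) and without WT B (log2 fold change -3.17, adjusted p = 0.000621); without WT C the log2 fold change was -1.07 (adjusted p = 0.28). The 11 neutrophil markers summed to 55.4 to 118.1 in the libraries labelled KO, against 5353.1, 1893.4 and 16801.3 in WT A, WT B and WT C, the same order over the WT libraries as Mmp8 and Mmp9. Elane, Mpo and Ly6g were at 0 in all libraries labelled KO. The part of these cells in the Mmp8 and Mmp9 values was not tested, and in bulk samples fewer cells of a type and less RNA per cell cannot be told apart. Mmp12, the macrophage elastase, had 12.09 ± 2.62 in KO and 22.12 ± 13.2 in WT (SD, n = 3 each), with 37.4 in WT C, and did not pass.

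Mmp8 and Mmp12 belong to a cluster of 9 member genes on chromosome 9 between 7272514 and 7699585 (GRCm38), which also holds the collagenases Mmp13 and Mmp1b, the stromelysins Mmp3 and Mmp10, and Mmp7, Mmp20 and Mmp27. In these microglia 6 of the 9 were at 0 in every library. Mmp13 had 7.8, 0.0 and 0.9 in the libraries labelled KO, against 4.0, 0.9 and 1.2 in those labelled WT, with no separation (adjusted p = 0.937). Promoters of this cluster are known for binding sites of AP-1, a transcription factor that is often activated with inflammation. RefSeq promoter sequences (GRCm38.p6) matched 52 members, some with several starts, which gave 57 windows. The AP-1 letters TGANTCA, searched on both strands in the 250 bases before the start, were in 11 of the 57 windows and in 6.7% of all 32851 windows. They were present in 7 of the 9 genes of the cluster, and in 0 of 16 called members, 3 of 16 tested but not called and 8 of 20 not tested. The TATA letters TATAAA, searched on the strand of the gene only, were in 10 member genes, 6 of them in the cluster, and in 7.6% of all windows. The last 150 bases before the start are shown for 3 genes of the cluster and, for contrast, for the 2 most abundant members that rose and the one with the largest fall; capitals mark TGANTCA and TATAAA, which do not overlap here.
Mmp3 (chr9:7445672-7445821, plus strand): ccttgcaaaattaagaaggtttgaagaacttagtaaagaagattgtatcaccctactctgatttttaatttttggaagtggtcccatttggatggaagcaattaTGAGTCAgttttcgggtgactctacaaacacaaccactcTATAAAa
Mmp10 (chr9:7502192-7502341, plus strand): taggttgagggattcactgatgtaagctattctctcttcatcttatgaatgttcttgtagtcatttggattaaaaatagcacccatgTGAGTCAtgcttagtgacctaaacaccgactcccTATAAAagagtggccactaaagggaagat
Mmp13 (chr9:7272364-7272513, plus strand): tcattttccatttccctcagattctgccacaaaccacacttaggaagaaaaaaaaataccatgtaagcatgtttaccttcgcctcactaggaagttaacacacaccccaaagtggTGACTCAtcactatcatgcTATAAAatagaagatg
Adamts1 (chr16:85803114-85803263, minus strand): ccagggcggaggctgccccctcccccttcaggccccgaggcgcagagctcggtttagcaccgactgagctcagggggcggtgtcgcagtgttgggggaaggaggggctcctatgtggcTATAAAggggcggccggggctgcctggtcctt
Mmp14 (chr14:54431448-54431597, plus strand): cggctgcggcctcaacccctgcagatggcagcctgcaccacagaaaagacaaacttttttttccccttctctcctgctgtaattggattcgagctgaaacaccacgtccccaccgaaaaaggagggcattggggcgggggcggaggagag
Mmp28 (chr11:83463041-83463190, minus strand): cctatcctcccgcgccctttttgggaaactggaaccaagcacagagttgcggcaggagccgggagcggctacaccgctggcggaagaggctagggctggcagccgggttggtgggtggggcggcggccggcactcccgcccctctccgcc
The AP-1 letters begin 46, 63 and 35 bases before the start in Mmp3, Mmp10 and Mmp13. The TATA letters begin 7, 29 and 16 bases before it in these genes and 32 bases before it in Adamts1. All these distances depend on the RefSeq start, which was not checked. The windows of Mmp14 and Mmp28 hold neither, which says only that these letters are not in these bases.

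Per kilobase, Adam15, Adam10 and Adam17 had the highest levels of the ADAM genes in both groups; of these, Adam17 passed the test and was lower. Adam17, the tumour necrosis factor convertase, had 5759.1, 5884.3 and 5817.1 normalised reads in KO A, KO B and KO C, against 9469.4, 9399.2 and 8951.1 in WT A, WT B and WT C. The spread within groups was small and the fall was 1.59-fold (log2 fold change -0.67, SE 0.06, adjusted p = 2.12e-05). Adam17 spans chr12:21323509-21373593 (minus strand, GRCm38). Adam10, the alpha-secretase that also cuts Notch, had 13771.0, 10168.1 and 12074.9 in the libraries labelled KO, against 14790.6, 14722.3 and 12975.7 in those labelled WT. The groups overlapped and the gene did not pass (log2 fold change -0.25, SE 0.11, adjusted p = 0.101). It passed with the library letter as a block (adjusted p = 0.0356) and without KO A (log2 fold change -0.35, adjusted p = 0.0212), but the log2 fold change was -0.11 with TMM factors (adjusted p = 0.517) and -0.10 with edgeR and with DESeq2 (adjusted p = 0.556 and 0.612). Adam15, which carries an integrin-binding stretch in the human protein, had the highest level per length of all members in the libraries labelled WT. Its 16566.9, 15498.6 and 16495.6 in the libraries labelled KO overlapped with 16395.6, 16433.2 and 16665.6 in those labelled WT (log2 fold change -0.03, SE 0.07, adjusted p = 0.784; 0.11 as log2 fold change with TMM factors). Adam9, another sheddase, had 1649.9, 1430.9 and 1573.1 in the libraries labelled KO, against 2718.8, 2468.0 and 2235.7 in those labelled WT, a fall of 0.67 (SE 0.09, adjusted p = 0.000252).

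Adam8 and Adam33 rose. Adam8, a protease gene of myeloid cells, had 123.2, 145.2 and 113.0 normalised reads in the libraries labelled KO, against 63.8, 71.2 and 91.0 in those labelled WT. The gap between the groups was narrow (log2 fold change 0.75, SE 0.19, adjusted p = 0.0101). Adam33, known in human from genetic studies of asthma, had 216.2, 211.8 and 310.8 in the libraries labelled KO, against 47.1, 98.8 and 51.8 in those labelled WT. Every library labelled KO held over 2 times the highest WT value (log2 fold change 1.94, SE 0.27, adjusted p = 0.000314).

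Adam11, Adam22 and Adam23 encode proteins without protease activity that serve as receptors of LGI proteins in neurons, and all were lower. Adam22 had 79.7, 133.0 and 102.7 normalised reads in the libraries labelled KO, against 174.2, 135.8 and 182.1 in those labelled WT. KO B and WT B were almost equal, and the call (log2 fold change -0.66, SE 0.20, adjusted p = 0.029) was lost without KO A, KO C, WT A or WT C (adjusted p = 0.0753 to 0.0957) and when TMM factors were used (adjusted p = 0.0758). Adam11 had 4.6, 7.8 and 11.7 in the libraries labelled KO, against 28.9, 17.4 and 83.2 in those labelled WT; its log2 fold change of -2.07 (SE 0.53, adjusted p = 0.0125) was -1.46 without WT C (adjusted p = 0.0315). Adam23 was near the floor in the libraries labelled KO, at 4.6, 0.0 and 1.4, against 10.6, 5.3 and 25.3 in those labelled WT. Its call (log2 fold change -2.39, SE 0.69, adjusted p = 0.0217) was lost without WT C, KO B or KO C (log2 fold changes -1.85, -1.77 and -2.40), and without KO A the log2 fold change was -3.01. The 10 neuronal markers summed to 77.0 to 88.2 in the libraries labelled KO, against 242.1, 255.9 and 436.5 in WT A, WT B and WT C; their part was not tested.

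Many ADAM genes are known from testis and sperm, and 13 of the 33 were at 0 in every library, Adam2, Adam7 and Adam24 among them. Adam3, whose protein acts in sperm, was an exception. It had 240.5, 203.5 and 259.7 normalised reads in the libraries labelled KO, against 414.3, 395.2 and 429.9 in those labelled WT, a fall of 0.82 (SE 0.12, adjusted p = 0.000407). Adam3 lies on chromosome 8 in a run with Adam18, Adam5, Adam32 and Adam9, and 199 of its 2743 exonic bases overlap Gm45528 on the other strand. Adam18, Adam5 and Adam32, its neighbours, had means of 7.3, 3.2 and 1.7 over the 6 libraries. Adam1a, with 1396 ± 37.7 in KO and 1348 ± 46.3 in WT (SD, n = 3 each), did not pass, and its value cannot be assigned to this gene: all 4783 bases of the deposited transcript are shared with exons of Gm42878 or Mapkapk5 on the same strand. Adam4 and Adam19, with means of 20.5 and 24.5 normalised reads and overlapping groups, did not pass.

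The ADAMTS family was led by Adamts1, which rose. Adamts1 encodes a secreted protease that cuts the proteoglycans versican and aggrecan. It had 45543.9, 57013.7 and 45058.6 normalised reads in KO A, KO B and KO C, against 15372.5, 14235.0 and 12642.3 in WT A, WT B and WT C. The lowest library labelled KO lay far above the highest labelled WT, a 3.49-fold rise (log2 fold change 1.80, SE 0.11, adjusted p = 9.34e-07). Per kilobase of transcript its level was 10110 in the libraries labelled KO and 2894 in those labelled WT, which placed it at rank 1 of the members in KO and at rank 4 in WT. Adamts1 spans chr16:85793827-85803113 (minus strand, GRCm38). Adamts10, whose protein binds fibrillin fibres, had 2214.7, 2557.4 and 2666.2 in the libraries labelled KO, against 1561.0, 1660.1 and 1809.4 in those labelled WT. The rise was smaller, 0.56 on the log2 scale (SE 0.09, adjusted p = 0.000816), with no overlap.

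Adamts16, Adamts6 and Adamts4 fell. Adamts16, a protease gene known from kidney and gonad, had 434.7, 489.5 and 488.0 normalised reads in the libraries labelled KO, against 1734.7, 2051.4 and 1849.2 in those labelled WT. It was 3.99-fold lower with little spread in either group (log2 fold change -1.99, SE 0.09, adjusted p = 1.69e-07). Adamts6, a relative of Adamts10, had 117.7, 105.3 and 137.8 in the libraries labelled KO, against 278.6, 309.3 and 325.0 in those labelled WT, a fall of 1.34 (SE 0.14, adjusted p = 4.44e-05). Adamts4, an aggrecanase, had 11.4, 17.2 and 20.6 in the libraries labelled KO, against 56.7, 35.6 and 164.0 in those labelled WT. All WT values lay above all KO values and WT C was the highest; the log2 fold change of -2.05 (SE 0.48, adjusted p = 0.00747) was -1.44 without it (adjusted p = 0.011). Adamts4 is known as a gene of oligodendrocytes, whose 8 markers summed to 5516.8 to 6356.2 in the libraries labelled KO, against 10449.9, 8091.6 and 21394.4 in WT A, WT B and WT C; their part was not tested. Adamts9 reached at most 5.6 normalised reads in any library, and its call (adjusted p = 0.0242) was lost without WT A, WT C, KO A or KO C (adjusted p = 0.0715 to 0.089). Adamts7 had 72.3 ± 11.4 in KO and 78.1 ± 15.4 in WT (SD, n = 3 each) and did not pass. The other 7 tested members of the family had means of 1.1 to 9.5 and did not pass.

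Of the ADAMTSL genes, which lack the protease domain, Adamtsl2 fell the most. Its protein binds fibrillin and the latent TGF-beta binding protein LTBP1. It had 32.5, 38.2 and 30.0 normalised reads in the libraries labelled KO, against 258.8, 269.7 and 247.8 in those labelled WT. The highest WT value was 1.09 times the lowest, and the fall was 7.70-fold (log2 fold change -2.92, SE 0.16, adjusted p = 6.17e-07). Adamtsl2 spans chr2:27079379-27108981 (plus strand, GRCm38). Adamtsl4, of microfibrils in the eye, had 65.0, 65.4 and 72.7 in the libraries labelled KO, against 54.2, 52.1 and 103.7 in those labelled WT and did not pass (log2 fold change 0.03, SE 0.26, adjusted p = 0.956). Adamtsl1 and Adamtsl5 were low, with means of 10.1 and 5.0, and neither passed.

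Among the inhibitors, Timp2 made up 99.6% of the summed level per kilobase in KO and 98.9% in WT, and Timp3 fell the most. Timp2, which blocks many MMPs and also takes part in the activation of MMP2 by MT1-MMP, had 13562.5, 12772.6 and 13072.8 normalised reads in the libraries labelled KO, against 15875.0, 15550.6 and 15654.5 in those labelled WT. The groups did not overlap (log2 fold change -0.26, SE 0.07, adjusted p = 0.0115), but the difference was close to the median of all genes and was lost with TMM factors (log2 fold change -0.12, adjusted p = 0.213). Timp3, a matrix-bound inhibitor that also blocks ADAM17, had 38.5, 61.0 and 53.0 in the libraries labelled KO, against 150.9, 90.8 and 295.4 in those labelled WT. WT C was the highest and the log2 fold change of -1.66 (SE 0.36, adjusted p = 0.00513) was -1.21 without it (adjusted p = 0.00811). Timp3 lies within Syn3 on chromosome 10, and 1733 of its 4722 exonic bases overlap exons of Syn3 on the other strand. Timp4, inside Syn2, had 10.5, 33.3 and 19.7 in the libraries labelled KO, against 37.0, 25.8 and 98.3 in those labelled WT and did not pass (log2 fold change -1.21, SE 0.50, adjusted p = 0.0895); without WT B it passed at -1.61 (adjusted p = 0.0399), while the log2 fold change was -0.66 without WT C (adjusted p = 0.291) and -0.81 without KO A (adjusted p = 0.257). Timp1, the inhibitor known to be induced by inflammation, had at most 1.8 normalised reads in any library and was not tested. Timp3 is known from pericytes and vessels. The 12 markers of pericytes and fibroblasts summed to 552.9 to 706.4 in the libraries labelled KO, against 1256.1, 1065.1 and 2750.6 in WT A, WT B and WT C. The 10 endothelial markers summed to 1094.8 to 1242.4 in the libraries labelled KO, against 2376.5, 2551.6 and 4118.6 in those labelled WT. The part of these cells was not tested.

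Summed per kilobase of transcript, a scale on which genes can be compared, the ADAMTS family had the largest ratio between the groups after ADAMTSL. The ADAMTS sum was 10847 ± 1406 in the libraries labelled KO and 3757 ± 224 in those labelled WT (SD, n = 3 each), and Adamts1 made up 93.2% of it in KO and 77.0% in WT. The MMP sum was 2758 ± 94.2 in KO and 2408 ± 170 in WT, with Mmp14 at 72.7% in KO and 46.6% in WT. The ADAM sum was 9033 ± 560 in KO and 10608 ± 277 in WT, the TIMP sum 3565 ± 103 in KO and 4290 ± 55.2 in WT, and the ADAMTSL sum 28.2 ± 2.4 in KO and 94.3 ± 7.85 in WT. In the libraries labelled WT the levels of Adam15 and Timp2 per kilobase, 4266 ± 37.8 and 4241 ± 44.8 (SD, n = 3), differed by less than their spread. The 6 leading members per kilobase were the same genes in both groups, namely Adam15, Timp2, Adam10, Adamts1, Adam17 and Mmp14.

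**Figure D3:**
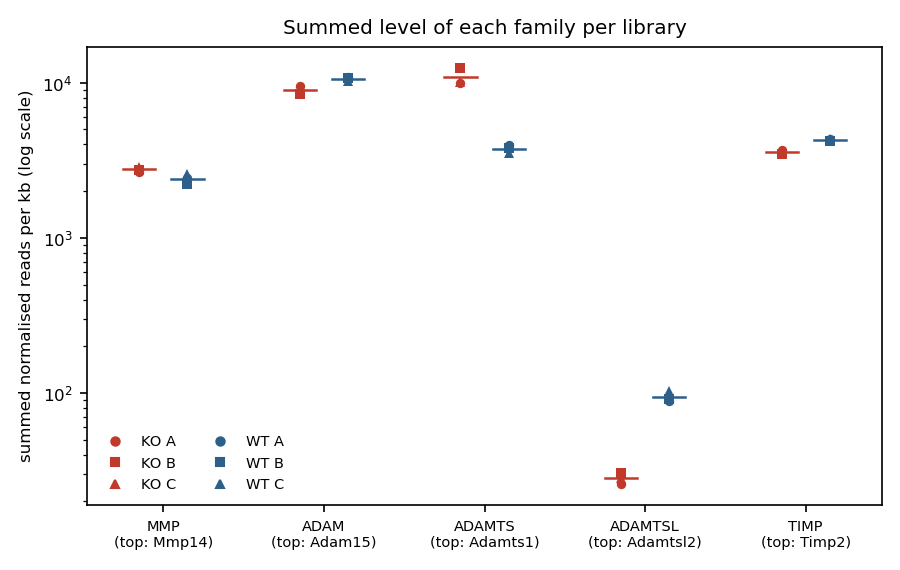
Sum of the members of each family in normalised reads per kilobase of transcript (log axis), for each library labelled KO (red) and WT (blue), with group means as bars; the name under each family is its member with the highest mean level. The ADAMTS sums are 10022 to 12471 in the libraries labelled KO and 3512 to 3950 in those labelled WT.

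Library WT C held over 2 times the mean of WT A and WT B for 18 of the 52 tested members, of which 5 were called lower, 1 higher and 12 not called. The 5 were Adam11, Adam23, Adamts4, Mmp8 and Timp3. Without WT C, 6 members were higher and 16 lower of 51 tested, where 10.3% and 17.6% of all 22213 genes tested were (28.0% in all); all 22 were among the 26 called with all libraries, and Adam22, Adam23, Adamts9 and Mmp8 were lost. The other 15 lower members had WT C within 2 times of the other WT libraries, Mmp28, Adamtsl2, Mmp15 and Adamts16 among them.

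**Figure D4:**
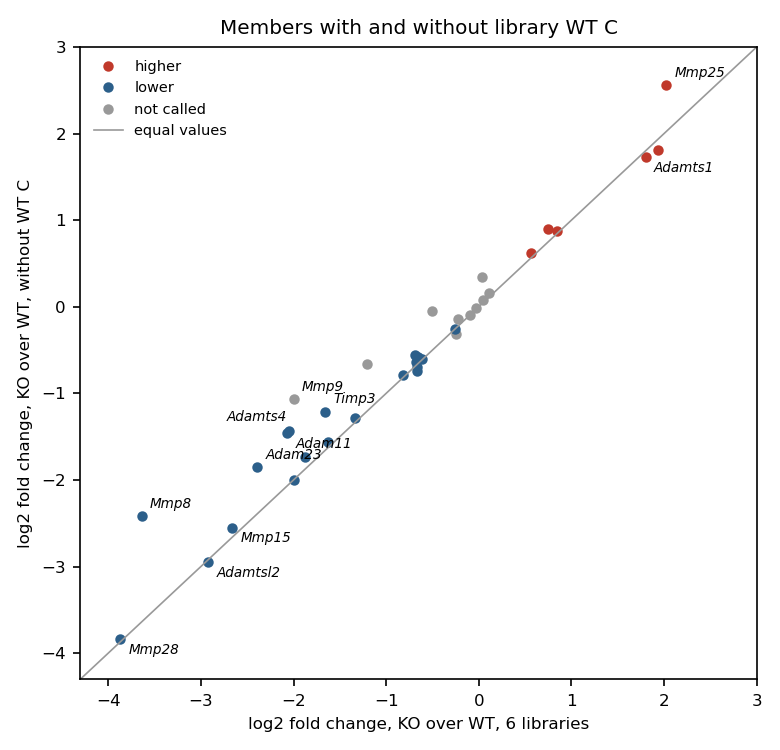
Log2 fold change (libraries labelled KO over WT) of 36 members with all 6 libraries (horizontal) and without WT C (vertical); colours give the call with all libraries, and the line marks equal values. Mmp28 and Adamtsl2 lie on the line, while Mmp8, Adam11, Adamts4 and Timp3 lie above it.

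The wider system around these enzymes was read from 6 lists. Their counts stand beside 11.3% higher and 23.4% lower of all tested genes, 15.4% and 15.4% with TMM factors, and 10.3% and 17.6% without WT C. Of 18 tested genes on the list for control of metalloproteinases, 2 were higher and 9 lower (median log2 fold change -0.54), and without WT C 2 and 6. Rhbdf2, the gene of iRhom2, which carries ADAM17 to the cell surface in macrophages, had 1694 ± 316 normalised reads in the libraries labelled KO and 873 ± 51.2 in those labelled WT (SD, n = 3 each; log2 fold change 0.94, SE 0.12, adjusted p = 0.000171). Frmd8, which stabilises iRhoms, had 2283 ± 44.7 in KO and 3275 ± 211 in WT and fell by 0.52 (SE 0.07). Tspan17, a tetraspanin of the group that escorts ADAM10, had 173 ± 18.5 in KO and 44.9 ± 15.5 in WT and rose by 1.97 (SE 0.23). Named after their values were seen, Rhbdf1 and the tetraspanin genes Tspan5 and Tspan15 were called lower. With TMM factors their log2 fold changes were -0.38, -0.42 and -1.29. The call of Tspan15 was lost without KO A, KO C, WT A or WT C (adjusted p = 0.0556 to 0.0862). Cst3 was on this list although its product, cystatin C, is an inhibitor of cysteine proteases. Cst3 had 272641 ± 18929 in KO and 479764 ± 28063 in WT and fell by 0.82 (SE 0.11). Chosen after their values were seen, the membrane-anchored MMP inhibitor gene Reck fell by 0.75 (SE 0.15), while Furin, the protease that matures many of these enzymes, stood at 3665 ± 222 in KO and 3775 ± 63.9 in WT and did not pass.

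In the plasminogen system, whose product plasmin activates MMP precursors, 3 of 10 tested genes were higher and 3 lower (median log2 fold change 0.51), and with TMM factors 6 and 2. Plau, urokinase, had 9137 ± 719 normalised reads in the libraries labelled KO and 4924 ± 353 in those labelled WT (SD, n = 3 each; log2 fold change 0.89, SE 0.08, adjusted p = 1.78e-05). Its receptor gene Plaur had 2145 ± 904 in KO and 501.3 ± 51.6 in WT and rose by 2.02 (SE 0.23), and Hpn, a membrane serine protease gene, rose by 1.46 (SE 0.16). Serpine2, an inhibitor of urokinase and thrombin, had 9917 ± 948 in KO and 16263 ± 471 in WT and fell by 0.72 (SE 0.08). Of 9 tested genes of other zinc peptidases (median -0.35) 4 were lower: Bmp1, the procollagen C-proteinase, by 1.27 (SE 0.10), and the carboxypeptidase genes Cpe by 1.15 and Cpm by 2.31 (log2 fold change -1.83 without WT C). Ece1, of an endothelin-converting enzyme, had a log2 fold change of -0.35, which did not pass with TMM factors (-0.22, adjusted p = 0.0902), without WT C (-0.28, adjusted p = 0.0752) or without KO B (adjusted p = 0.0595).

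Of 35 tested membrane proteins known to be shed, 11 were higher and 12 lower (median -0.12, against -0.15 for all genes). Tnf, the classic substrate of ADAM17, had 19523 ± 1580 normalised reads in the libraries labelled KO and 5839 ± 1463 in those labelled WT (SD, n = 3 each; log2 fold change 1.77, SE 0.16, adjusted p = 1.55e-05). Axl, Cd44 and Cxcl16, genes of a receptor kinase, a hyaluronan receptor and a membrane-bound chemokine, rose by 4.43, 2.98 and 2.09, and Pecam1, an adhesion gene of vessels and leukocytes, fell by 1.90. Notch1, at 3280 ± 251 in KO and 3310 ± 167 in WT, did not pass; Tnf and Notch1 were named after their values were seen. Of 31 tested matrix substrates, 2 were higher and 19 lower (median -1.38), and 13 were lower without WT C; the list shares 5 genes with the markers of pericytes and fibroblasts given above. Sparc had 27001 ± 2239 in KO and 139038 ± 2536 in WT and fell by 2.37 (SE 0.09), Lamb2, a laminin chain gene, fell by 0.52, and Spp1 and Thbs1, of osteopontin and thrombospondin 1, rose by 2.63 and 0.81. Of 18 tested genes of fibrillin fibres and latent TGF-beta, the partners of ADAMTSL proteins, 1 was higher and 5 lower (median -1.10). Over all tested genes 11.3% were higher and 23.4% lower. With TMM factors 1 gene of the list was higher and 1 lower, beside 15.4% and 15.4% of all. Lox, a collagen cross-linking enzyme, rose by 2.57 (SE 0.33), and Ltbp3, of a latent TGF-beta binding protein, fell by 0.45. Tgfb1 had a log2 fold change of -0.34, which did not pass with TMM factors (-0.21, adjusted p = 0.0798). Ltbp4 had -1.31, which did not pass without WT C (-0.77, adjusted p = 0.0934), KO A (-1.06) or KO C (-1.25), nor when TMM factors were used (-1.17, adjusted p = 0.0619).

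Because QKI binds RNA at a core ACUAAC or ACUAAU near a second UAAC or UAAU, the deposited transcripts of the members were searched for these letters (written with T; the partner 1 to 20 bases away on either side, on the transcript strand only). Sequences from GENCODE M21 were found for 51 of the 52 tested members. A core was in 28 of the 51 (54.9%) and in 45.4% of 15026 protein-coding transcripts tested, whose median length was 3098 bases against 4306 for the members. A core with a partner was in 5 of the 51 (9.8%) and in 16.6% of all. Among members called lower it was in 3 of 20, and among those called higher in 0 of 6. The Adamts1 transcript holds 3 cores, all in the 3' UTR and none with a partner. The sites of the 3 lower members are shown with core and partner in capitals.
Adam22 (chr5:8111958-8111977, minus strand): ggcACTAATatcaTAATagg
Adam9 (chr8:24950470-24950491, minus strand): aagACTAATtgccaaTAACgtc
Adamts4 (chr1:171253915-171253942, plus strand): tgaTAACtccaagccatgcACTAACttg
The Adam9 site is in the 3' UTR, in exon 22 of 22, and the others are in coding sequence, in exon 25 of 30 for Adam22 and exon 4 of 9 for Adamts4. Mmp28, Mmp15 and Adamtsl2, the called members with a mean above 20 that fell the most, held no core in their deposited transcripts. A match is a description of the letters and not a measured binding site.

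The authors' deposited table marks 503 of all its 55421 rows (0.908%), with rows not tested here included. Of the 83 members 7 are marked: Adamts1 and Adam33 as higher and Mmp28, Adamtsl2, Mmp15, Adamts16 and Timp3 as lower. The mark is narrower than the authors' own adjusted p under 0.05. Mmp14 and Adam17, for example, are not marked at authors' adjusted p-values of 4.08e-33 and 1.54e-10. The 7 are thus not set against the 26 calls made here. In the authors' deposited table the log2 fold change is 1.94 for Adamts1 and -3.71 for Mmp28. All 7 passed here in the same direction. Other members differed: the authors' adjusted p is 0.218 for Timp2 and 0.0865 for Adam22, which were called lower here. For Mmp9, which did not pass here, it is 0.00209.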

How the data were processed

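RNA was measured in 6 libraries of sorted microglia, 3 labelled KO and 3 labelled WT. Reads were handled by the authors with STAR 2.7.1a, Trimmomatic 0.39, DESeq2 1.26.0 and HOMER 4.11.1 on mm10/GRCm38, per the submitters' processing notes, which give no order, settings or strand use. The deposited signal is the reads of each gene scaled to the same column total by the authors; within 0.1, 100.0% of values were whole multiples of 1 step per column, so whole reads were recovered. The deposited table also holds the authors' log2 fold changes and p-values. Columns named Treatment and Control were taken as KO and WT from the group names; their letters match no number in the labels.

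The row with the highest mean was kept per symbol (117 rows left out). Genes with a mean above 1 were fitted with limma 3.58.1 (R 4.3.3, trend) on log2(value + 1), with Benjamini-Hochberg adjustment over 22472 genes and a threshold of 0.05; this scale understates changes of low genes, and folds are ratios of group means. Deviations from group means correlated at 0.61, 0.20 and 0.30 for the same letter in both groups and at -0.36 to 0.08 for different letters (11588 genes). No label states that the letters pair libraries, so a pairing rests on these same values only. Results are from the unpaired fit unless stated. With the letter as a block 31 members and 9378 genes were called, in place of 26 and 7781. Alternatives were other pseudocounts, filters, rows and thresholds, TMM factors, edgeR 4.0.16 and DESeq2 1.42.0 on recovered reads, the replicate block and each library left out. Added after seeing the data was edgeR on halved reads, since even read numbers outnumbered odd ones. They made up 54.2% (WT B) to 55.6% (WT C) of the read numbers above 0 in a library. The limma, edgeR and DESeq2 fits were tested on simulated data. The simulation changed few genes, up and down alike, and held no outlying library. It therefore cannot tell how the fits behave on these data.

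Values per library are given for members called with a mean above 20 and the leading member of each family, and up to 4 called genes per list by smallest p; other genes named were chosen after their values were seen. Members, lists and tests were chosen with earlier results of these data known. Coordinates are those of the deposited transcripts, counted from 1. Protein sequences were not used here.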

Additional observations from a re-analysis of the deposited data

How the results depend on the processing

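All 6 higher members stayed called in every alternative at the 0.05 threshold, and the lower members numbered 16 to 25 across alternatives at that threshold; at 0.01 there were 5 higher and 14 lower. Of 26 called members, 19 kept direction and call in all alternatives run, 14 lower and 5 higher. Without 1 library each, 16 to 24 members were lower and 6 higher, and 6213 to 6747 genes were called in all. At an adjusted p under 0.01, 4710 genes were called in place of 7781, which follows from the stricter threshold. With the replicate block 6 members were higher and 25 lower of 52; beside Adam10 and Mmp9 the gains were Adam18, Adamts2 and Adamts20 (log2 fold changes -1.18, -1.49 and -1.96, adjusted p = 0.0396, 0.0377 and 0.015), and no member call was lost. Both edgeR fits called 17 members lower and DESeq2 19.

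Only genes that did not pass changed sign, by small amounts; the cause was not tested. Adam15 was 0.11 with TMM factors, edgeR, DESeq2 and edgeR on halved reads, and between -0.05 and 0.00 with single libraries left out, reaching 0.00 without KO replicate B. Adam4 was 0.11 with either edgeR fit, 0.12 with DESeq2, and -0.74 to 0.15 with single libraries left out, the highest without KO replicate A. Adamts7 was 0.03 with TMM factors, DESeq2, edgeR on halved reads, without WT replicate B and without KO replicate B, and 0.02 with edgeR; with single libraries left out it ranged from -0.25 to 0.03. Adamtsl4 was -0.12, -0.15 and -0.03 without WT replicate A, WT replicate B and KO replicate C, in a range of -0.15 to 0.34. Adam22, Adam23, Adamts9 and Mmp8 were each lost when single libraries were left out, and Timp2 under other scaling. A count of 0 allows 1.34 to 1.81 normalised reads, which limits what can be said of the members at 0.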

Other observations

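Mmp3, Mmp10 and Mmp1b were at 0 in all 6 libraries. Of the 20 members at 0 everywhere, 13 were ADAM, 6 MMP and 1 ADAMTS genes, and the 11 further members that were not tested reached at most 3.6 normalised reads in any library.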
